A study of Homo sapiens with 4 samples.

Results

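The MYC, MAX, MXD and MLX network is a set of transcription factors, and 10 of its genes are described here: MYC, MAX, MXD1, MXD3, MXD4, MXI1, MNT, MGA, MLX and MLXIP. The members were chosen by name, by their place in the network, with earlier results of these data known, and are 10 of the 60682 genes in the deposited count table. Each of the 10 had counts enough to enter the test, which took in 14864 genes. The cells were JJN3, an established human multiple myeloma line, that is, a tumour of antibody-secreting plasma cells. A pair of libraries came from cells transduced with a short hairpin RNA (shRNA) against WNK1, a kinase known for its control of cation-chloride transport and cell volume (the shWNK1 group). A second pair came from cells transduced with the construct labelled NS (the NS group), so both groups share transduction, cell line and culture medium. The labels name a single WNK1 hairpin treatment, so effects of the hairpin's sequence and of WNK1 loss cannot be told apart. They give no time after transduction and do not say whether the 2 libraries of a group came from separate cultures, so each p-value below reflects only how far these libraries scatter, possibly for technical reasons.

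MYC is a basic helix-loop-helix leucine zipper factor that binds DNA, mostly at the E-box word CACGTG and its variants, as a dimer with MAX, and it promotes transcription of genes for growth, ribosome production and metabolism. MAX also pairs with the MXD proteins (MXD1, MXI1, MXD3 and MXD4), with MNT and with MGA; these dimers occupy the same words and, through SIN3 and other corepressors, lower transcription. MLX is a second shared partner, which pairs with MLXIP (MondoA), with MNT and with some MXD proteins and links the network to sugar sensing. In myeloma, raised MYC expression, often through rearrangement of its locus, is a frequent feature of the disease.

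The E-box is the word through which the network acts, and some members' own promoters hold it, so those promoters are shown first. RefSeq promoter windows on GRCh38.p14, each running from 250 bases before to 50 after an annotated start (300 bases), were at hand for 9 members, in 14 windows. The palindromic word CACGTG, which reads the same on both strands, lay in 1 window each of MXD4, MNT and MLX, and in no window of the other 6 members with one. Across all promoter windows in the same table, 2548 of 35116 (7.26%) held it. A match describes the letters only and is no measurement of binding. The sequences printed are the 250 bases before the start, 5′ to 3′ on the gene's strand, with CACGTG in capitals. MXD4 is chr4:2262110-2262359 (minus strand), with the word at position -238 from the start. MNT is chr17:2401061-2401310 (minus strand), with the word at -193. MLX is chr17:42566850-42567099 (plus strand), with the word at -50. MXD1, the member with the largest rise, is shown beside them because its window, chr2:69914859-69915108 (plus strand), does not hold the word.
MXD4: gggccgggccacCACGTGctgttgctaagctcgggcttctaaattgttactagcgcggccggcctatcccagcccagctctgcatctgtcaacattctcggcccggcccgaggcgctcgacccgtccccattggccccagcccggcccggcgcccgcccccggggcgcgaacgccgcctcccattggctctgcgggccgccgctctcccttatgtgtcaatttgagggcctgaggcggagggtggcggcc
MNT: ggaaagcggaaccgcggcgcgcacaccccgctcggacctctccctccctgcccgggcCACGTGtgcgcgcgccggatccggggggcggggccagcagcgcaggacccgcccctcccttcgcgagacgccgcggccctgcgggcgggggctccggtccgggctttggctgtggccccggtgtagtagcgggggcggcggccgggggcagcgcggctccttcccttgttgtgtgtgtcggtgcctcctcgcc
MLX: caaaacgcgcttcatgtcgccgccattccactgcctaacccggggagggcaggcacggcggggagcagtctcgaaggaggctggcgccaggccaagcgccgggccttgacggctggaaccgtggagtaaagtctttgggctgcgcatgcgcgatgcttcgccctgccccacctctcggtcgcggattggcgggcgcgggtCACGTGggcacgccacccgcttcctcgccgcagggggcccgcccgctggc
MXD1: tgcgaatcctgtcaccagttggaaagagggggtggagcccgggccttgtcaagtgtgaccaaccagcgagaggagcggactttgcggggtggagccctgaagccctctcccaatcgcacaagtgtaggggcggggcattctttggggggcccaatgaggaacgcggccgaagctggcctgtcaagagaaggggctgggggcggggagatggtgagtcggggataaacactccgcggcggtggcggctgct
The 3 genes with the word did not move together: MXD4 and MNT were higher and MLX was lower in the shWNK1 libraries, as the values below show.

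Values are read pairs per gene, given as counts or as CPM (counts scaled to 1000000 counted pairs a library) after trimmed-mean scaling between libraries; a log2 difference is shWNK1 over NS. Total counts ran from 16973521 to 20164122 per library, and 21465 to 23575 genes had at least 1 count. WNK1 itself had 325 and 403 counts in the shWNK1 libraries against 4911 and 4148 in the NS libraries, a log2 difference of -3.80 (SE 0.085, edgeR quasi-likelihood test with Benjamini-Hochberg adjustment, adjusted p = 4.2e-25), so the libraries carry the labelled knockdown. The 8 plasma cell markers were all detected, at a summed 1486 and 1517 CPM in the shWNK1 pair and 1816 and 1764 CPM in the NS pair. Of these markers 2 were higher and 5 lower, where 18.5% of all tested genes were higher and 20.2% lower. SLAMF7 rose most, at 12.1 and 11.3 CPM against 1.349 and 1.655 CPM (log2 difference 2.96). SDC1 and MZB1 fell most, with log2 differences of -1.32 and -0.98. The first principal component of the tested genes carried 71.2% of the variance. Markers of T and NK cells summed to at most 0.650 CPM in a library, with CD3D, CD3G and KLRD1 at 0 in all 4. The 6 myeloid markers summed to 5.16 and 5.11 CPM against 2.17 and 1.42 CPM, with S100A8 at 4.70 and 4.62 against 1.06 and 0.887 CPM (log2 difference 2.25), while LYZ and FCGR3A were at 0. The 7 stromal and epithelial markers summed to 130.8 and 137.8 CPM against 121.3 and 133.7 CPM, mostly from EPCAM, with COL1A2 and COL3A1 at 0. The part of these marker shifts in the results below was not tested.

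**Figure D1:**
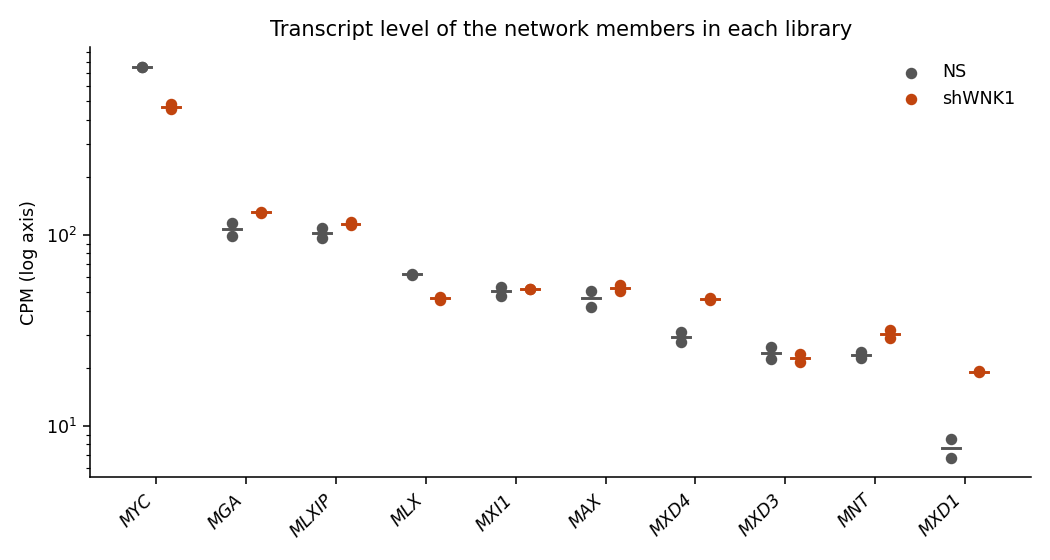
CPM of the 10 network genes in each library (points; log axis), by group, with the mean of each group of 2 as a short line. MYC lies far above the other members in all 4 libraries, and the shWNK1 and NS points of MAX, MXD3 and MXI1 overlap.

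MYC fell in the shWNK1 libraries while the repressors MXD1, MXD4, MNT and MGA rose and the shared partner MLX fell. MXD1 made the largest change of the 10 genes and MYC the largest fall. MAX, MXD3, MXI1 and MLXIP did not pass the test. That is 4 members higher and 2 lower at an edgeR adjusted p under 0.05, where 38.8% of all tested genes passed, 18.5% as higher and 20.2% as lower. The libraries of the groups did not overlap in 7 of the 10 members, near the 68.4% of all tested genes for which this held. The median log2 difference was 0.17 over the members and 0.0051 over all tested genes. In these bulk samples, fewer cells of a kind and less RNA per cell cannot be told apart.

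MYC, the activating factor of the network, had 7899 and 9973 counts in the shWNK1 pair and 12890 and 12790 in the NS pair. Scaled for depth, this was 453 and 485 CPM against 756 and 756 CPM. Both shWNK1 libraries lay well below both NS libraries, and the NS libraries were nearly equal. MYC was 1.61-fold lower, a log2 difference of -0.69 (SE 0.057, 95% confidence interval -0.80 to -0.57, edgeR adjusted p = 1.6e-11). Leaving out each library in turn gave log2 differences from -0.74 to -0.64. Even so, MYC stood at the 98.0 and 98.2 percentile of all tested genes by CPM per kilobase of exon in the shWNK1 libraries, against 98.7 in each NS library, so it was still among the more abundant transcripts. CASC11, a non-coding gene on the opposite strand, covers 4.2% of the exon bases of MYC and had only 7 and 8 counts against 21 and 17, far fewer than MYC. Here and for the members below, read pairs that matched both genes equally were counted for neither. Counts of an overlapping gene therefore do not show how many pairs fell in the shared bases.

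The other MYC family genes were low. MYCL, a paralogue of MYC, measured 7.11 and 7.01 CPM in the shWNK1 pair and 11.1 and 9.46 CPM in the NS pair. The groups did not overlap, and the log2 difference was -0.55 (SE 0.185, edgeR adjusted p = 0.0188). The MYCL call was lost with DESeq2 (adjusted p = 0.0818) and on leaving out shWNK1 replicate 1 (0.109), the other shWNK1 library (0.12) or NS replicate 1 (0.137). MYCN, the third paralogue, had 7 and 4 counts against 10 and 18, and MLXIPL (ChREBP), the paralogue of MLXIP, had 9 and 3 against 2 and 2, too few for either to be tested.

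MAX, the obligate partner of MYC and of the MXD proteins, gave 54.7 and 50.7 CPM in the shWNK1 pair and 41.8 and 51.1 CPM in the NS pair. The NS libraries differed from each other by more than the shWNK1 libraries did, and the groups overlapped. The log2 difference of MAX was 0.18 (SE 0.096, 95% confidence interval -0.015 to 0.38, edgeR adjusted p = 0.14). Without NS replicate 2 it became 0.34 (edgeR adjusted p = 0.0036), so the absence of a call rests on that library. MAX lies at chr14:65006174-65102695 on the minus strand, and 16.1% of its exon bases are shared with other genes, chiefly FNTB on the opposite strand. FNTB had only 37 and 80 counts against 63 and 53.

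MXD1 (MAD1), an antagonist known to be induced as cells stop dividing and differentiate, was the member that rose most. It had 334 and 396 counts in the shWNK1 pair and 116 and 145 in the NS pair, or 19.1 and 19.3 CPM against 6.80 and 8.57 CPM. The shWNK1 libraries were almost identical and both were above either NS library. MXD1 was 2.50-fold higher, a log2 difference of 1.32 (SE 0.159, 95% confidence interval 1.00 to 1.65, edgeR adjusted p = 4.2e-08). The difference was 1.163 to 1.501 when each library was left out in turn. Among all tested genes ranked by CPM per kilobase of exon, MXD1 stood at the 26.2 and 29.4 percentile in the NS libraries and at the 42.9 and 43.2 percentile in the shWNK1 libraries. The gene lies at chr2:69897688-69942945 on the plus strand. It shares 3.7% of its exon bases with SNRNP27, a splicing gene on the same strand, which had 195 and 184 counts in the shWNK1 pair and 306 and 333 in the NS pair. SNRNP27 thus moved the other way from MXD1.

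MXD4 (MAD4), a related antagonist, gave 45.8 and 46.9 CPM in the shWNK1 pair and 31.1 and 27.4 CPM in the NS pair. The groups did not overlap, and the gap between them was wider than the spread within either. MXD4 was 1.58-fold higher, a log2 difference of 0.66 (SE 0.101, 95% confidence interval 0.46 to 0.87, edgeR adjusted p = 2.9e-06). It lies at chr4:2247432-2262109 on the minus strand, with 1.2% of its exon bases shared with another gene.

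The other members of the MXD family, MXI1 and MXD3, did not pass. MXI1 measured 51.9 and 52.1 CPM in the shWNK1 libraries, between the 53.3 and 48.0 CPM of the NS libraries. Its log2 difference was 0.037 (SE 0.089, 95% confidence interval -0.14 to 0.22, edgeR adjusted p = 0.783). MXD3 measured 23.7 and 21.7 CPM against 22.4 and 25.9 CPM, again with overlapping groups, and a log2 difference of -0.094 (SE 0.124, 95% confidence interval -0.35 to 0.16, edgeR adjusted p = 0.59). The sign of both turned when NS replicate 2 was left out, to -0.032 for MXI1 and 0.019 for MXD3, so neither has a direction in these data. The MXD3 level is uncertain, because 40.2% of its exon bases are shared with RAB24 on the same strand or PRELID1 on the opposite strand, and read pairs that matched both genes equally were counted for neither. PRELID1 is far more abundant, with 7112 and 8521 counts against 8716 and 9734.

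MNT, which pairs with MAX or MLX and is the repressor most widely present in dividing cells, gave 28.7 and 31.7 CPM in the shWNK1 pair and 22.7 and 24.4 CPM in the NS pair. Each shWNK1 library was above each NS library. The log2 difference of MNT was 0.36 (SE 0.116, 95% confidence interval 0.12 to 0.60, edgeR adjusted p = 0.0131), or 1.28-fold. This call was lost with DESeq2 (adjusted p = 0.0556) and without shWNK1 replicate 2 (log2 difference 0.28, adjusted p = 0.221). MNT lies at chr17:2384073-2401104 on the minus strand. The gene that shares 12.2% of its exon bases had 0 counts in all libraries, which does not show how many pairs fell in the shared bases.

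MGA, a very large protein that combines a MAX-pairing domain with a T-box and scaffolds a Polycomb complex, gave 131.8 and 130.6 CPM in the shWNK1 pair and 115.3 and 99.1 CPM in the NS pair. The shWNK1 libraries were close together and above both NS libraries, which differed more. The log2 difference of MGA was 0.29 (SE 0.073, 95% confidence interval 0.14 to 0.44, edgeR adjusted p = 0.00166), or 1.22-fold. Without NS replicate 2 the difference was 0.19 (edgeR adjusted p = 0.0198), so its size rests in part on that library. MGA lies at chr15:41621224-41773081 on the plus strand, with 3.3% of its exon bases shared.

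MLX, the shared partner of MLXIP and of several repressors, was the second member to fall. It gave 45.7 and 47.3 CPM in the shWNK1 pair and 61.9 and 62.4 CPM in the NS pair. The libraries within each group were close together, and the groups were well apart. MLX was 1.33-fold lower, a log2 difference of -0.42 (SE 0.086, 95% confidence interval -0.59 to -0.24, edgeR adjusted p = 2.0e-04). It lies at chr17:42567068-42573239 on the plus strand and shares 18.1% of its exon bases with PSMC3IP on the opposite strand, which had 202 and 192 counts against 195 and 168.

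MLXIP (MondoA), which moves to the nucleus with MLX when glucose 6-phosphate rises, gave 112.1 and 116.9 CPM in the shWNK1 pair and 108.8 and 96.3 CPM in the NS pair. The groups did not overlap, but the nearest libraries were only a few CPM apart. The log2 difference of MLXIP was 0.16 (SE 0.073, 95% confidence interval 0.011 to 0.31, edgeR adjusted p = 0.0837). It passed with upper-quartile scaling (0.20, edgeR adjusted p = 0.0293) and without NS replicate 1 (0.25, edgeR adjusted p = 0.00286). MLXIP lies at chr12:122078756-122147344 on the plus strand, and no other gene shares its exon bases.

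**Figure D2:**
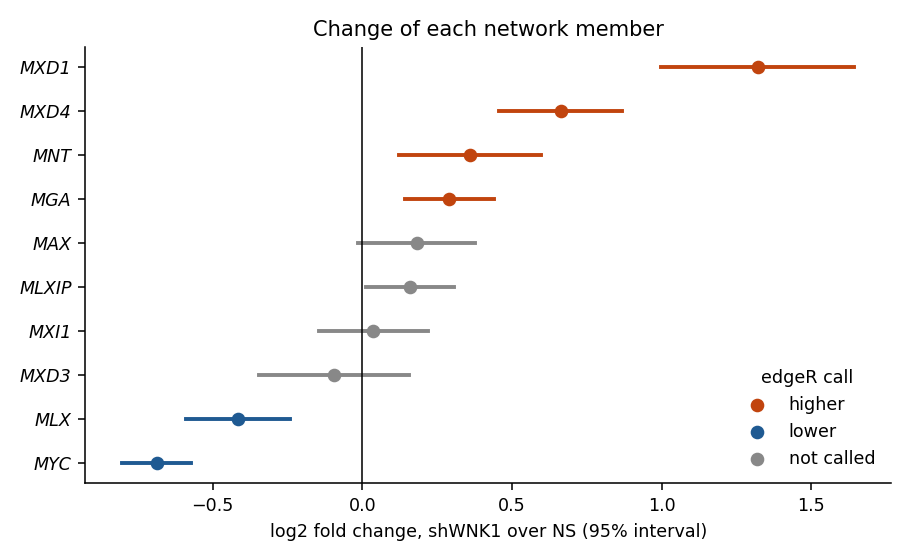
Log2 difference (shWNK1 over NS) of each network gene with its 95% confidence interval from the edgeR fit. Colour gives the call at an adjusted p under 0.05: orange for higher, blue for lower and grey for not called. MXD1 at 1.32 and MYC at -0.69 are the extremes, and the intervals of MAX, MXI1 and MXD3 cross 0.

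To compare levels between the genes, CPM was divided by exon length in kilobases. On this scale MYC led the NS libraries with a mean of 165 CPM per kilobase (n = 2), and MLX followed with 14.6. Then came MXI1 with 8.57, MAX with 7.42, MLXIP with 7.40, MGA with 6.07, MXD3 with 4.69, MXD4 with 4.26, MNT with 2.71 and MXD1 with 1.21 CPM per kilobase. Neighbours whose NS libraries overlapped, and so have no order, were MXI1 and MAX, MAX and MLXIP, and MXD3 and MXD4.

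In the shWNK1 libraries MYC remained first with a mean of 102 CPM per kilobase and MLX second with 10.9. MXD4, with 6.74, now stood above MXD3, with 4.40, and their libraries did not overlap. MXD1 remained last, but at 3.02 CPM per kilobase it lay close under MNT at 3.47. MAX and MLXIP, at 8.42 and 8.26 CPM per kilobase, were the only neighbours whose shWNK1 libraries overlapped. Counting only exon bases that no other gene shares, MXD3 stood at 7.85 CPM per kilobase in the NS libraries and 7.36 in the shWNK1 libraries. This was above MXD4 (4.31 and 6.82) in both. MXD3 then also stood above MLXIP (7.40) and MGA (6.28) in the NS libraries, and MAX (10.0) above MXI1 (9.1) in the shWNK1 libraries. The order of these genes thus depends on how shared bases are treated.

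The repressors of the MXD type (MXD1, MXD3, MXD4, MXI1 and MNT) summed to 26.3 and 26.5 CPM per kilobase in the shWNK1 pair and 21.6 and 21.3 in the NS pair. Divided by MYC in the same library, this sum was 0.267 and 0.251 in the shWNK1 pair and 0.131 and 0.129 in the NS pair. The means were 0.259 ± 0.0115 and 0.130 ± 0.00119 (SD, n = 2 each), and the groups did not overlap. The ratio was 1.99-fold higher in the shWNK1 libraries (2-sided exact permutation p = 0.333, the smallest that 2 libraries against 2 can give). With MXD1 left out of the sum the ratio was 1.87-fold higher. Since MYC was 1.61-fold lower in the same libraries, the ratio holds the fall of MYC as well as the rise of MXD1, MXD4 and MNT. It compares transcripts and not proteins.

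Each repressor divided by MYC, per kilobase, gives its part of the sum. MXI1, which itself did not pass the test, had a mean of 0.086 in the shWNK1 pair against 0.052 in the NS pair. MXD4 had 0.066 against 0.026, MXD3 0.043 against 0.028 and MNT 0.034 against 0.016. MXD1 over MYC, per kilobase, was 0.0305 and 0.0287 in the shWNK1 pair and 0.0065 and 0.0082 in the NS pair. MAX, which is not in the sum, was 0.0886 and 0.0765 over MYC against 0.0405 and 0.0495. MAX was thus higher relative to MYC in both shWNK1 libraries, although MAX itself did not pass the test.

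**Figure D3:**
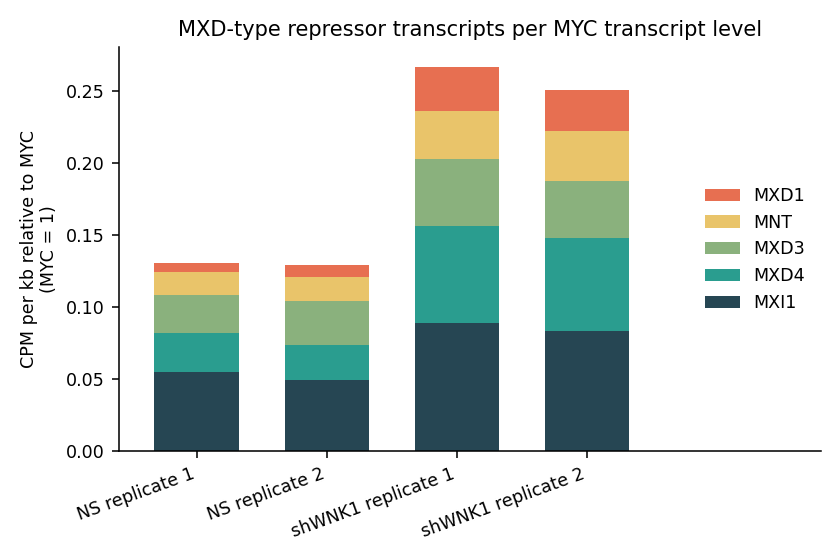
Summed level of MXD1, MXD3, MXD4, MXI1 and MNT divided by the level of MYC, both in CPM per kilobase, in each library. The shWNK1 libraries lie at 0.267 and 0.251 and the NS libraries at 0.131 and 0.129.

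Genes with the most similar pattern to MYC were sought as those with the smallest Euclidean distance between centred log2 CPM values over the 4 libraries, among 14863 genes. CHD3, a chromatin remodeller of the NuRD complex, came first at a distance of 0.026, with 78.8 and 85.0 CPM against 131.2 and 134.4. MEIS2, a homeobox factor, followed at 0.035, and DDX18, a nucleolar RNA helicase, at 0.038. Over only 4 libraries such a likeness describes these libraries and no more.

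MYC-activated targets were mostly lower in the shWNK1 libraries. Of 30 such genes, 25 were lower, 1 was higher and 4 were not called, with a median log2 difference of -0.38. Of all tested genes, 20.2% were lower and 18.5% higher. The 30 genes were compiled from textbook knowledge with earlier results of these data known. ODC1, the first enzyme of polyamine synthesis, gave 290.2 and 283.9 CPM against 1027 and 1036, a log2 difference of -1.85 (SE 0.057, edgeR adjusted p = 2.3e-22). Both shWNK1 libraries were far below both NS libraries. CDC25A, the phosphatase that releases CDK2 at S phase entry, followed with 29.9 and 32.7 CPM against 109.8 and 110.2 (log2 difference -1.81, edgeR adjusted p = 8.0e-18). PPAT, which opens purine synthesis, fell by 1.18 on the log2 scale. The single riser was CCND2, the D-type cyclin, at 267.2 and 274.9 CPM against 203.9 and 197.0 (log2 difference 0.44, edgeR adjusted p = 4.7e-07). EIF4A1, one of the 4 genes not called, was counted at under 4 CPM in all libraries, and 48.6% of its exon bases are shared with other genes, so its value is uncertain. Between 20 and 25 of the genes were lower when each library was left out in turn.

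Genes that MYC dimers are known to repress were mostly higher. Of 15 that could be tested, 11 were higher, 1 was lower and 3 were not called, with a median log2 difference of 0.65. Of all tested genes, 18.5% were higher and 20.2% lower. CDKN1A, the CDK inhibitor p21, gave 269.5 and 276.7 CPM against 79.3 and 80.9, a log2 difference of 1.77 (SE 0.065, edgeR adjusted p = 2.7e-20). The groups were far apart and each pair of libraries was close. TXNIP followed with a log2 difference of 1.24 (edgeR adjusted p = 9.1e-16). It is the same gene that is counted below among the targets of MLXIP and MLX. GADD45A, a stress and growth arrest gene, rose by 1.01 on the log2 scale, and its relative GADD45B was the exception, with a log2 difference of -0.63 (edgeR adjusted p = 3.4e-04). Many of these genes also respond to p53, stress or differentiation. The number higher was 8 to 10 when each library was left out in turn and 9 with DESeq2.

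Targets of MLXIP and MLX showed no common direction: of 5 tested, 1 was higher, 1 lower and 3 not called (median log2 difference 0.02). The 40.0% called was near the 38.8% of all tested genes. TXNIP, the arrestin that restrains glucose uptake and the best known target of the pair, gave 204.0 and 184.9 CPM in the shWNK1 pair and 81.1 and 83.3 in the NS pair. It was 2.37-fold higher, a log2 difference of 1.24 (SE 0.069, edgeR adjusted p = 9.1e-16), with no overlap, while MLX fell and MLXIP did not pass. HK2, a hexokinase, was lower, with a log2 difference of -0.37 (edgeR adjusted p = 7.9e-05). TXNIP is also counted among the MYC-repressed genes above, and HK2 among the MYC-activated targets. ARRDC4, the paralogue of TXNIP, had 0 counts in all libraries, which allows 0.146 to 0.177 CPM per library (3 counts; counting error only). Without NS replicate 2 the number lower was 2.

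**Figure D4:**
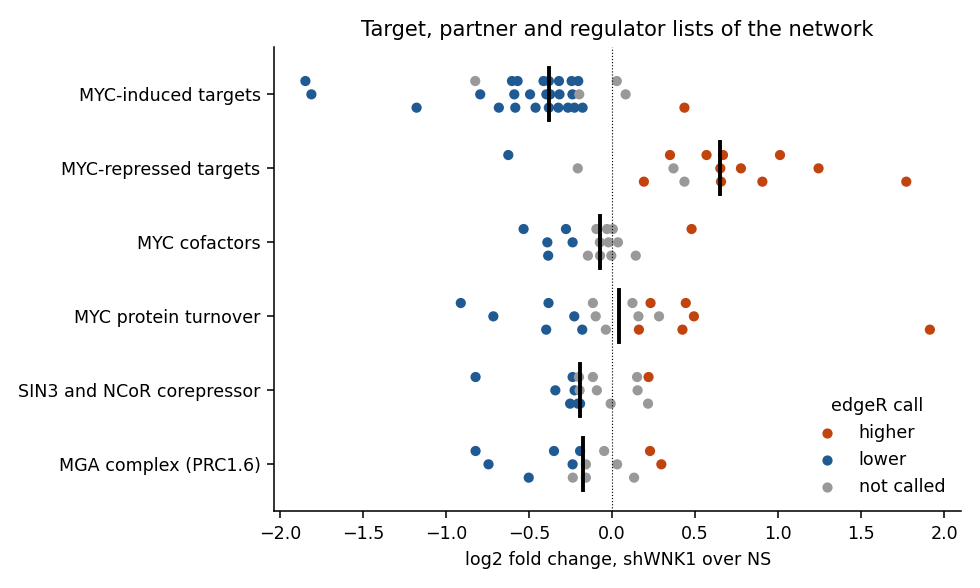
Log2 difference (shWNK1 over NS) of each tested gene in the lists around the network, 1 point a gene, with the median of each list. Most MYC-activated targets lie below 0 and most MYC-repressed targets above 0, while the lists of cofactors, turnover genes and corepressors lie on both sides of 0.

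Genes whose products control the stability of MYC protein were split. Of 18 tested, 6 were higher, 6 lower and 6 not called (median log2 difference 0.04). Among all tested genes, 18.5% were higher and 20.2% lower. FBXW7, the ubiquitin ligase subunit that targets phosphorylated MYC, rose from 27.6 and 26.8 CPM in the NS libraries to 38.0 and 38.5 CPM in the shWNK1 libraries (log2 difference 0.49, edgeR adjusted p = 3.0e-04), without overlap. USP28, a deubiquitinase that counters FBXW7, rose as well (log2 difference 0.44, edgeR adjusted p = 5.1e-05). FBXO32, the subunit of another ligase, was low, at 4.53 and 4.38 CPM against 0.704 and 1.65 CPM, with a log2 difference of 1.91 that ran from 1.42 to 2.65 when each library was left out. AURKA, a mitotic kinase that shields MYC family proteins from FBXW7, fell by 0.91 on the log2 scale (edgeR adjusted p = 4.2e-11). STUB1 (CHIP), a ubiquitin ligase, and USP7, a deubiquitinase, fell by 0.72 and 0.40, although 42.5% of the exon bases of STUB1 are shared with other genes. The number higher was 3 without shWNK1 replicate 2. MYC protein was not measured.

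Of 16 cofactors of MYC, 1 was higher, 5 were lower and 10 were not called (median log2 difference -0.07). The 37.5% called was near the 38.8% of all tested genes. RUVBL1, an ATPase of chromatin complexes that MYC recruits, fell by 0.53 on the log2 scale (edgeR adjusted p = 5.7e-08). CDK9 and CCNT1, the kinase and cyclin of the elongation factor P-TEFb, fell by 0.39 each. Without shWNK1 replicate 2 the number lower was 3, and without NS replicate 1 the number higher was 2.

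MXD proteins and MNT act through corepressor complexes. Of 16 SIN3 and NCoR complex genes, 1 was higher, 7 were lower and 8 were not called (median log2 difference -0.19), where 18.5% of all tested genes were higher and 20.2% lower. HDAC2, a histone deacetylase of the SIN3 complex, gave 99.2 and 102.8 CPM in the shWNK1 pair and 173.6 and 183.6 in the NS pair, well apart (log2 difference -0.82, edgeR adjusted p = 8.6e-12). SIN3A, the scaffold that binds the MXD proteins, had a log2 difference of -0.24 (edgeR adjusted p = 0.0108), lost without shWNK1 replicate 1 (0.145) or 2 (0.0872). SIN3B did not pass (log2 difference 0.15, edgeR adjusted p = 0.141). The single riser, SUDS3, passed narrowly (log2 difference 0.22, edgeR adjusted p = 0.039). It lost its call under 6 alternatives, among them DESeq2 (0.117). The number lower was 2 and 3 without shWNK1 replicate 1 and 2, and the number higher was 3 without NS replicate 1 and 0 without each of the other libraries, with DESeq2 or without the low-count filter.

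The Polycomb complex that MGA scaffolds (PRC1.6) had 14 other tested genes, of which 2 were higher, 6 lower and 6 not called (median log2 difference -0.18). For all tested genes the shares were 18.5% higher and 20.2% lower. RING1, a ubiquitin ligase of the complex, gave 33.8 and 25.8 CPM against 50.1 and 49.5 (log2 difference -0.74, edgeR adjusted p = 1.7e-06). TFDP1, the dimer partner of E2F6, fell by 0.50 on the log2 scale. The subunits most particular to this complex did not pass: PCGF6 had a log2 difference of 0.03, L3MBTL2 of 0.13 and E2F6 of -0.048. CBX1 and RYBP were the 2 that rose, with log2 differences of 0.30 and 0.23. Neither passed without shWNK1 replicate 1 (edgeR adjusted p = 0.196 and 0.257), and 1 of the 2 passed without shWNK1 replicate 2 or without NS replicate 2.

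Regulators of the MYC transcript itself moved in both directions. Of 15 tested, 3 were higher, 7 lower and 5 not called (median log2 difference -0.12). Among all tested genes, 18.5% were higher and 20.2% lower. FUBP1, which binds a far upstream element of MYC and promotes its transcription, gave 185.4 and 184.5 CPM in the shWNK1 pair and 311.1 and 302.5 in the NS pair, with no overlap (log2 difference -0.73, edgeR adjusted p = 1.0e-11). NCL, nucleolin, and HNRNPD, an RNA-binding protein of AU-rich elements, fell by 0.59 and 0.70 on the log2 scale. Among the genes that rose, ZFP36L1, which promotes decay of AU-rich transcripts, stood at 104.7 and 112.1 CPM against 34.01 and 30.55 (log2 difference 1.75, edgeR adjusted p = 3.7e-17). CTNNB1, the transcriptional partner of TCF factors, had a log2 difference of 0.42. Without NS replicate 1 the number higher was 5. No part of any of these genes in the fall of MYC was tested.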

How the data were processed

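RNA from 4 JJN3 libraries, 2 labelled shWNK1 and 2 labelled NS, was sequenced as read pairs. Per the submitters' processing notes and the file headers, the authors trimmed with Trimmomatic, aligned with STAR to hg38 and deposited raw counts per gene from featureCounts 2.0.0 with GENCODE 34 (mapping quality at least 20, both ends mapped, strand setting 0, no option to count pairs that overlap several genes). One gene, whose row is broken over 3 lines, and 45 pseudoautosomal Y copies with 0 counts were left out.

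Counts of 60682 genes were filtered (filterByExpr, leaving 14864), scaled by trimmed means and tested across all these genes with edgeR 4.0.16 (robust quasi-likelihood, 2-sided, Benjamini-Hochberg adjusted p under 0.05; R 4.3.3), checked on simulated counts. All 4 libraries entered the main fit, with 2 residual degrees of freedom. The median prior degrees of freedom were 29.8, so a gene's p-value rests more on scatter shared over genes than on its own. Alternatives were DESeq2 1.42.0, limma-voom (limma 3.58.1), other scalings and filters, a replicate block and leaving out each library. Same-numbered libraries did not deviate together (correlation 0.00126). Levels between genes used CPM per kilobase of exon; ratios were tested by exact permutation. Exon overlaps and promoter windows came from the annotation on hg38 and from RefSeq (GRCh38.p14).

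The members and gene lists were chosen with earlier results of these data known. The text names all members, WNK1, MYCL, MYCN and MLXIPL, up to 3 rising and 3 falling genes per list by smallest p, direct partners or regulators of a member, the 3 genes nearest to MYC in pattern and genes overlapping a member's exons. EIF4A1 and ARRDC4 were singled out after their values were seen. Some results are not reported here.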

Additional observations from a re-analysis of the deposited data

How the results depend on the processing

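Over 11 alternatives for each member, 103 of 110 log2 differences kept their direction and their side of the threshold, including all those of MYC, MXD1, MXD4, MGA and MLX. The MNT call was lost with DESeq2 (0.356, adjusted p = 0.0556) and by leaving out libraries (range 0.278 to 0.434), MLXIP gained one with upper-quartile scaling (0.198) and by leaving out libraries (0.078 to 0.249), and MAX gained one by leaving out libraries (0.043 to 0.337). The sign of MXD3 (-0.198 to 0.019) and MXI1 (-0.032 to 0.114) turned without NS replicate 2. Over all tested genes, 1632 to 2778 were higher and 1964 to 3024 lower when a library was left out, a fit with fewer samples; DESeq2 called 1992 higher and 2442 lower. With a replicate block, 2539 genes were higher and 2804 lower, and 4 members were higher and 2 lower. The block changed no member's call and ended those of 4 listed genes, SKP2, USP22, SUDS3 (adjusted p = 0.0513) and CDKN2C. The repressor sum over MYC was 2.03-fold higher from raw counts and 1.99-fold higher with MGA added, the planned settings. It was 1.93-fold to 2.05-fold higher with shared bases left out of the length or a library left out. Without MXD1 it was 1.87-fold higher. These last settings were not planned, and that without MXD1 was chosen after seeing the data. Of the list counts, recomputed after seeing the data, 171 of 198 stayed within 1.5 times the reported count. Causes of these shifts were not tested, and 2 libraries a group limit the precision.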
